A study of Mus musculus with 8 samples.

Results

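The proteasome is the barrel-shaped protease that degrades ubiquitin-tagged proteins, and this account covers the genes for its subunits, assembly chaperones and activators. Members were the protein-coding genes of the count table whose symbol starts with Psm, a letter from a to g and a number, without Psmb8 and Psmb9. The rule gave 49 genes of 56748 in the table. Of these, 48 passed the count filter and were tested, and Psmb11, a subunit of the thymus with 1 read over all libraries, was not. The symbols also take in Psmc3ip, a recombination cofactor of meiosis, and Psme3ip1, a binding partner of Psme3, which are not proteasome subunits.

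RNA was sequenced from primary fibroblasts grown from hearts of wild-type C57BL/6J mice aged 1 day. There were 4 untreated libraries and 4 from cells given TGF-β1 at 10 ng/mL for 48 h. TGF-β1 is a signalling protein that turns fibroblasts into matrix-producing myofibroblasts. The series describes the replicates as isolates from separate litters, and the cultures were enriched for fibroblasts by adhesion only, so other heart cells could remain. The comparison asks which transcripts the cytokine changed.

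Library totals ran from 14340740 to 17176898 counts. All 7 fibroblast markers on the list were detected, with a summed level of 11999 to 13494 CPM (counts scaled to library size, as described under processing) in untreated libraries and 16093 to 17666 CPM in treated ones, although 5 of the 7 fell and 2 rose. Every listed cardiomyocyte marker had reads too, and their sum went from 774.6 to 847.2 CPM in untreated libraries to 415.4 to 494.7 CPM in treated ones, with all 10 called lower. In bulk RNA, fewer cells of a type and less RNA per cell cannot be told apart. Untreated replicate 1 stood apart with 0.0332% of counts on ribosomal RNA genes, against 1.09% to 2.56% in the other 7 libraries. Its counts differed from those of the other untreated libraries by a mean chi-square of 31.8 to 36.1 per gene, against 3.11 to 3.41 among those 3, and treated libraries differed among themselves by 3.42 to 12.5, so none looked like a copy of another. The smaller marker lists summed to 46.3 to 49.3 CPM untreated and 50.3 to 53.1 CPM treated for endothelial cells, 47.3 to 51.8 and 36.6 to 40.6 CPM for mural cells, and 886 to 937 and 747 to 775 CPM for epicardial cells. Markers within each list went both ways. Most of the mural sum was Notch3, which fell (mean 46.2 to 31.1 CPM), while Rgs5 rose (0.75 to 4.0 CPM) and 3 of 6 mural markers were tested. Among epicardial markers Upk3b (301 to 159 CPM) and Krt19 fell, Krt8 rose, and Msln, Wt1 and Upk1b were not called. Of the endothelial markers Pecam1 and Cdh5 rose and Egfl7 fell. The part of these shifts in the results below was not tested.

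As background, the core particle, 20S, is a stack of rings: outer rings of alpha subunits that gate the entrance and inner rings of beta subunits, among which Psmb5, Psmb6 and Psmb7 carry the protease sites. The regulatory particle, 19S, caps the barrel, and its ATPases unfold the substrate while its lid removes the ubiquitin chain. Core and cap together form the 26S proteasome, whose subunit genes are known to be raised as a set by the transcription factor NFE2L1 when proteasome activity runs short. In immune signalling, interferon induces exchange subunits, Psmb8, Psmb9 and Psmb10, and the activator pair Psme1 and Psme2.

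NFE2L1 and its relative NFE2L2 recognise the antioxidant response element, whose core was searched as TGACNNNGC in RefSeq promoter windows of the GRCm38.p6 build (250 bases before to 50 after the start site, both strands). Windows were found for 41 members, and not for Psma8, Psmb1, Psmb2, Psmb7, Psmc3, Psmd3, Psmd7 and Psmg2. The 3 stretches below, each the 250 bases before the start, are shown because they belong to standard beta and ATPase genes that rose and hold the core, which is in capitals.
Psmb5 (chr14:54617996-54618245, minus strand): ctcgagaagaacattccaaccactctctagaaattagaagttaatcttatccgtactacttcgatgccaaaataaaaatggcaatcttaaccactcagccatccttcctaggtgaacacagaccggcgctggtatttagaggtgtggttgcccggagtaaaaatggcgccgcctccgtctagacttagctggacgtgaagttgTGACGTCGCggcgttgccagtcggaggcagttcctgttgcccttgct
Psmb6 (chr11:70525107-70525356, plus strand): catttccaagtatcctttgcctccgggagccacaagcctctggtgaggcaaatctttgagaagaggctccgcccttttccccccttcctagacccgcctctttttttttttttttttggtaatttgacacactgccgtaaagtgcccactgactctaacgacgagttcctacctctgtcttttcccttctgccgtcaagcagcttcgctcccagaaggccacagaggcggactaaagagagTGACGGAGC
Psmc6 (chr14:45329574-45329823, plus strand): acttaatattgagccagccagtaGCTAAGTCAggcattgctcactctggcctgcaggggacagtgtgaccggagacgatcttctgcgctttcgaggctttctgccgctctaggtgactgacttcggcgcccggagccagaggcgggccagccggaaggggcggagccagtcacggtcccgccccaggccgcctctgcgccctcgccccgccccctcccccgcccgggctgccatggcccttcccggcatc

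In Psmb5 the match was TGACGTCGC, 47 bases before the start site, and in Psmb6 it was TGACGGAGC, beginning 9 bases before it. In Psmc6 the match, TGACTTAGC, lay on the reverse strand, so that it is printed above as its complement read backwards. Over all members with a window, 6 of 41 (14.6%) held the core, against 14.0% of all 27025 genes with a window. The share among the 22 members called higher that had a window was 22.7% (5 of 22), and Psmd12 and Psme4 completed those 5. Among the 16 uncalled members with a window it was 6.25% (1 of 16, Psmd9), and of the 2 called lower 0 held the core. No difference between these shares was tested. The CCAAT box was found in 36.6% of the members and 41.1% of all genes, and the interferon-stimulated response element in 12.2% and 3.99%. The 5 members that held the interferon element were Psmb3, Psmd4, Psmd9, Psmg4 and Psme1, and the site in Psme1 began 10 bases after its start. A match describes letters in a window and nothing about binding.

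Most transcripts of the standard 26S proteasome were slightly higher after TGF-β1 when libraries were scaled as described under processing. Of the 48 members tested, 25 rose and 2 fell, counting an adjusted p under 0.05 in the edgeR fit over all genes. Of all 13960 genes tested 36.0% were called, 17.6% higher and 18.5% lower. Among the 31 standard subunits of the core and cap, 21 rose and none fell, and 30 of 31 fitted values were above 0. Their median log2 fold change was 0.14, which is close to 10% more transcript, and the range was −0.0020 to 0.35. The median over all genes tested was 0.0068. Of the 4301 protein-coding genes in the same CPM range (42.6 to 378.1), 29.2% rose and 17.9% fell, and their median was 0.041. Fitted values above 0 made up 60.3% of these 4301 genes and 51.2% of all genes tested. No member changed by more than 0.5 in size on the log2 scale, whereas 16.4% of all genes did and 6.72% of the protein-coding genes in that CPM range. With read totals in place of the scaling factors, 7 of the 31 standard subunits were called higher, where 9.32% of all genes were. Their median was then 0.055, as described further below.

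**Figure D1:**
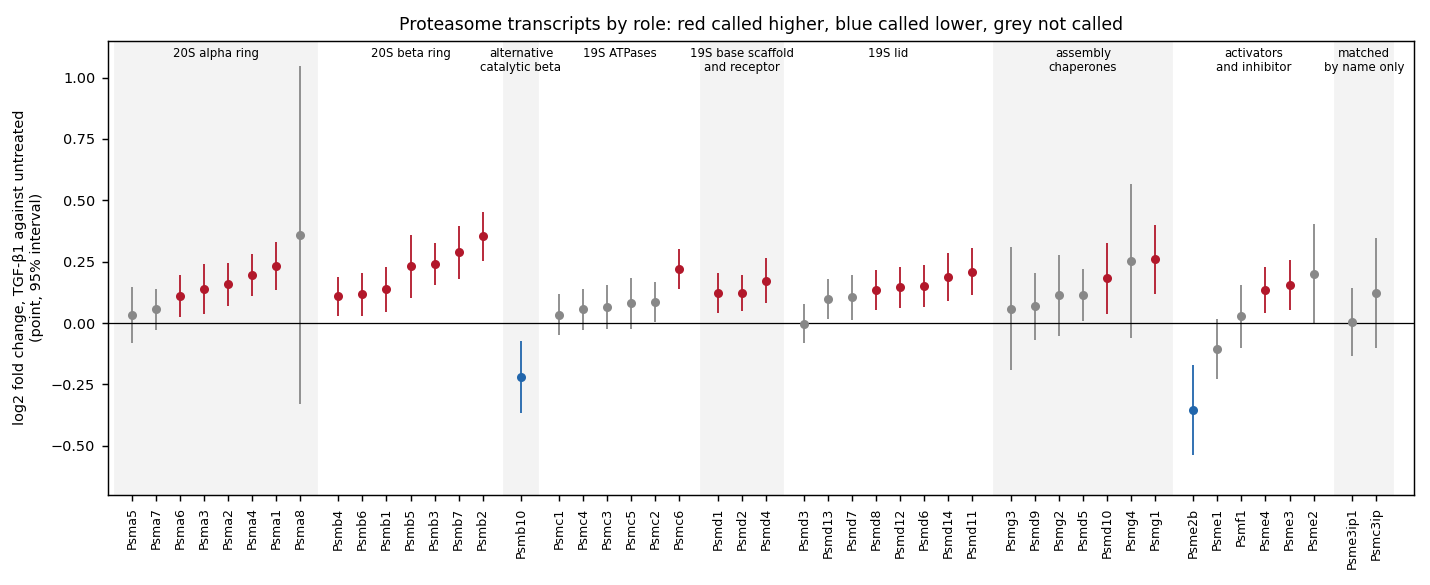
Log2 fold change of each tested member (vertical axis, TGF-β1 against untreated, 4 and 4 libraries) with its 95% interval, ordered within role groups along the horizontal axis; red members were called higher, blue lower and grey not called. All 7 beta ring genes are red, 1 of 6 ATPases is red, and Psmb10 and Psme2b are the blue points.

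The treated values lay above all untreated values in 24 of the 48 members, where 16.5% of all genes tested did so, and below them in 2, where 17.4% of all genes did. Of the called members, Psma3 and Psme3 had overlapping groups. Several calls sat near the threshold: those of Psma3, Psma6, Psmb4, Psme4 and Psmb6 were lost in 10, 9, 8, 7 and 6 of 18 other settings, which include leaving out each library in turn. A stricter adjusted p of 0.01 left 15 higher and 1 lower, Psme2b. Over all genes tested, too, fewer were called at 0.01 than the 36.0% called at 0.05. The counts at 0.01 can therefore not be set against the shares given for 0.05.

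The outer ring of the core, built from alpha subunits, rose in 5 of 8 cases, where 17.6% of all genes tested rose. With library totals in place of the scaling factors, Psma1 and Psma4 stayed called, and Psma2, Psma3 and Psma6 did not. Psma1 gave 82.2, 89.1, 89.9 and 90.5 CPM in the untreated libraries and 100.2, 98.1, 103 and 112 CPM in the treated ones. The treated values all lay above the untreated ones, a log2 fold change of 0.23 ± 0.047 (SE after ±; edgeR, adjusted p = 0.000476). Psma6, the alpha subunit with the highest FPKM, a read level per gene length, gave 116, 124, 125 and 129 CPM in the untreated libraries and 131, 138, 131 and 135 CPM in the treated ones, again without overlap but by less (0.11 ± 0.042). Psma4 (0.20 ± 0.042), Psma2 (0.16 ± 0.041) and Psma3 (0.14 ± 0.049) were the other called members, and in Psma3 the groups overlapped. Psma5 and Psma7 were not called, at 0.033 ± 0.055 and 0.056 ± 0.040, and with library totals in place of the scaling factors their values were −0.047 and −0.024. Psma8, which replaces Psma7 in testis, had 1.65 ± 0.804 CPM in untreated libraries (SD, n = 4), too few reads to place its change (95% interval −0.33 to 1.05).

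The inner ring rose in 7 of 7 cases, with a median of 0.23, where 17.6% of all genes tested rose. With library totals in place of the scaling factors, Psmb2, Psmb3 and Psmb7 stayed called. Psmb1, Psmb4, Psmb5 and Psmb6 were then not called (0.057, 0.028, 0.15 and 0.036). Psmb2, a structural beta subunit, had the largest called rise of any member, with 83.3, 91.2, 97.5 and 87.5 CPM in the untreated libraries and 119.7, 111, 112 and 117 CPM in the treated ones. The lowest treated library stood above the highest untreated one (GRCm39, chromosome 4, 126571423 to 126603507, plus strand), and the log2 fold change was 0.35 ± 0.048 (edgeR adjusted p = 3.17e-06). Psmb7, which carries the trypsin-like site, went from 74.6 ± 5.58 to 91.0 ± 3.32 CPM (SD over 4 libraries each), a log2 fold change of 0.29 ± 0.051. Psmb3 (0.24 ± 0.042), Psmb1 (0.14 ± 0.045) and Psmb4 (0.11 ± 0.039), all without a protease site, and the caspase-like Psmb6 (0.12 ± 0.042) completed the ring with Psmb5. Psmb4, highest of the ring in FPKM, gave 219.7, 222, 221 and 218 CPM in the untreated libraries and 225, 252, 237 and 235 CPM in the treated ones, so that its groups were separate by only a small margin. Psmb5, the chymotrypsin-like site, gave 36.3, 40.7, 39.1 and 40.9 CPM in the untreated libraries and 45.4, 45.4, 42.9 and 50.5 CPM in the treated ones and rose without overlap by 0.23 ± 0.061 (edgeR adjusted p = 0.00485).

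Of the 6 ATPases of the cap, Psmc6 passed the test, a call made under all 18 other settings, with 128, 132, 130.1 and 129 CPM in the untreated libraries and 144, 152, 152 and 157 CPM in the treated ones. Psmc6 lies on chromosome 14, 45567245 to 45587162, plus strand (GRCm39). Every treated value was above every untreated one (0.22 ± 0.039, edgeR adjusted p = 9.98e-05). Psmc3, the ATPase with the highest FPKM, gave 179.7, 183, 172 and 189 CPM in the untreated libraries and 193, 201, 183 and 181 CPM in the treated ones, and its groups overlapped (0.067 ± 0.043, adjusted p = 0.244). Psmc1, Psmc2, Psmc4 and Psmc5 lay between 0.035 and 0.086. The upper ends of the 95% intervals of the 5 uncalled ATPases ran from 0.12 to 0.19. The interval of Psmc6, 0.14 to 0.30, overlapped those of Psmc2, Psmc3, Psmc4 and Psmc5, and no difference among the ATPases was tested. Of the exonic bases of Psmc5, 39.5% lie under exons of Smarcd2 on the other strand, which fell (−0.18 ± 0.057), and without a known strand setting the reads of the pair cannot be told apart. With library totals, 4 of these 5 had negative values, from −0.046 (Psmc1) to −0.00055 (Psmc5).

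The scaffold and receptor of the cap's base rose in 3 of 3 cases. With library totals in place of the scaling factors, Psmd1, Psmd2 and Psmd4 were not called (0.042, 0.041 and 0.092). Psmd4, which binds ubiquitin chains, gave 111, 118, 121 and 123 CPM in the untreated libraries and 135, 141, 126 and 131 CPM in the treated ones, a log2 fold change of 0.17 ± 0.045 with no overlap. Psmd2, one of the large ring-shaped scaffold proteins, gave 373, 352, 349 and 354 CPM in the untreated libraries and 385, 396, 375 and 398 CPM in the treated ones. Untreated replicate 1 was the highest of its group here, unlike in most other subunits, and still lay under all treated libraries (0.12 ± 0.036). Psmd1, the other scaffold, rose by 0.12 ± 0.039.

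In the lid 5 of 8 genes rose, where 17.6% of all genes tested did. With library totals in place of the scaling factors, Psmd11 stayed called, and Psmd6, Psmd8, Psmd12 and Psmd14 did not. Psmd14, the deubiquitinase that cuts the chain from the substrate, gave 75.7, 75.7, 71.8 and 68.9 CPM in the untreated libraries and 77.7, 85.9, 83.7 and 85.2 CPM in the treated ones, a log2 fold change of 0.19 ± 0.048 (edgeR adjusted p = 0.0034). Its groups did not overlap, by a small margin. Psmd11 gave the largest change of the lid, with 84.5, 84.3, 91.4 and 96.1 CPM in the untreated libraries and 102, 103, 106 and 102 CPM in the treated ones (0.21 ± 0.046). Psmd8, highest of all members in FPKM, gave 337, 374, 373 and 357 CPM in the untreated libraries and 415, 392, 389.9 and 387 CPM in the treated ones (0.14 ± 0.039), and its groups did not overlap. Psmd6 (0.15 ± 0.041) and Psmd12 (0.15 ± 0.040) also rose. Psmd13 and Psmd7 were not called, at 0.10 ± 0.040 and 0.11 ± 0.044 (adjusted p = 0.0572 and 0.0667), and in Psmd13 the treated values still all lay above the untreated ones. Psmd3 gave −0.002 (95% interval −0.081 to 0.077).

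**Figure D2:**
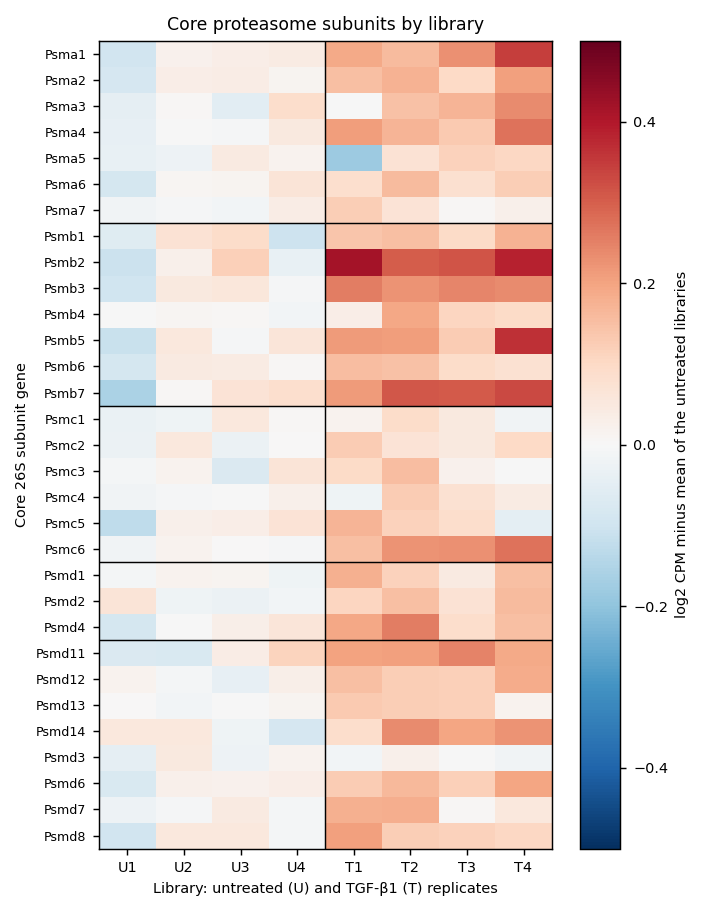
Each row is a standard 26S subunit gene and each column a library (U untreated, T TGF-β1, replicates 1 to 4); colour gives log2 CPM minus the mean of the untreated libraries, with black lines between alpha ring, beta ring, ATPases, base scaffold and lid. Between 27 and 31 of the 31 genes lie above the untreated mean in each treated library, against 4 in untreated replicate 1 and 19 to 21 in the other untreated ones.

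Most standard subunits lay above the untreated mean in every treated library. Their median deviation from the untreated mean was 0.11 to 0.15 on the log2 scale in the 4 treated libraries. It was −0.043 in untreated replicate 1 and 0.015 to 0.018 in the other untreated libraries. In treated replicate 4 the median deviation was 0.019 for the ATPases, 0.20 for the alpha ring and 0.24 for the beta ring. Summed over all members, reads took 0.483% to 0.488% of the untreated totals and 0.491% to 0.511% of the treated totals. In CPM the sum was 4598 to 4773 in untreated and 5064 to 5223 in treated libraries. Untreated replicate 1 was the lowest library of its group in this sum. Without it, 19 members rose and 2 fell, where 2155 and 2487 of all genes did. Of the 31 standard subunits 16 were then called, and the median of these 31 was 0.11.

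The size of these shifts is close to the difference between ways of scaling, so the calls depend on the choice. The scaled total was 1.01 to 1.05 times the read total in untreated libraries and 0.957 to 0.978 times in treated ones. With read totals in place of the TMM factors, 7 members rose and 3 fell (edgeR, adjusted p under 0.05), where 9.32% of all genes rose and 26.3% fell. The 7 were Psma1, Psma4, Psmb2, Psmb3, Psmb7, Psmc6 and Psmd11, and the 3 were Psmb10, Psme2b and Psme1. The median of the 31 standard subunits was then 0.055 and that of all genes −0.074. A change of scaling moves all genes by about the same amount, so the distance between these medians says nothing about the choice. Of the 31, 24 had positive values with read totals and 30 with TMM factors. With read totals 36.2% of all genes had positive values, and 39.7% of protein-coding genes in the CPM range of the standard subunits. The 7 genes named above rose under either scaling, while the other 18 rises were not called with read totals.

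**Figure D3:**
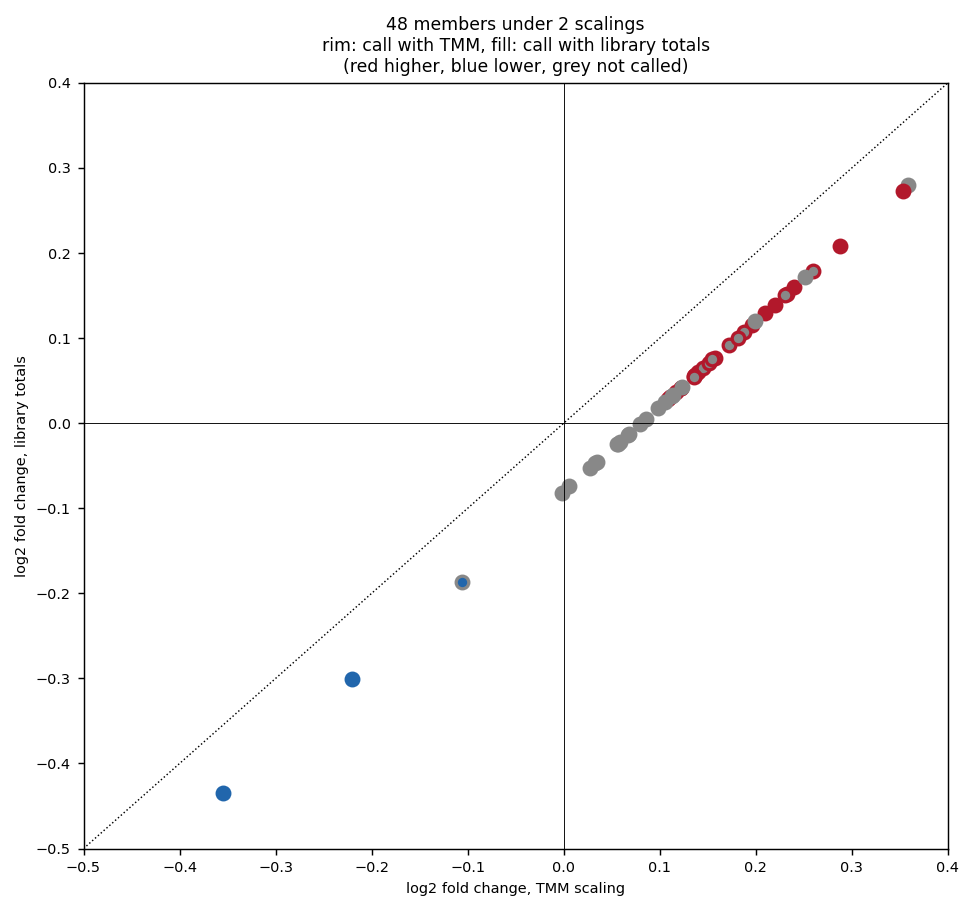
Each point is a tested member, with its log2 fold change under TMM scaling on the horizontal axis and under read totals on the vertical axis; rim and fill give the call under each (red higher, blue lower, grey not called) and the dotted line marks equality. All 48 points lie below the line by a similar distance, and 7 keep a red fill.

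Assembly chaperones, which build the rings and the base but leave the finished particle, rose in 2 of 7 cases, where 17.6% of all genes tested rose. The 29.2% of protein-coding genes in the CPM range of the standard subunits is not a like share, since most chaperones lay below that range. A count of 2 among 7 genes is too small to set against either share. Psmg1, a chaperone of the alpha ring, gave 23.6, 25.1, 22.8 and 21.9 CPM in the untreated libraries and 26.5, 28.1, 29.3 and 27.9 CPM in the treated ones, without overlap (0.26 ± 0.068, edgeR adjusted p = 0.00462). Psmd10, a chaperone of the ATPase ring, was called at 0.18 ± 0.070 (adjusted p = 0.0472), a call lost in 11 of the 18 other settings. Psmg2, Psmg3 and Psmg4, the other chaperones of the alpha ring, and the base chaperones Psmd5 and Psmd9 were not called. Their values ran from 0.058 (Psmg3) to 0.25 (Psmg4). With read totals Psmd9 and Psmg3 were at −0.012 and −0.023.

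Psmb10, the exchange subunit that takes the place of Psmb7 in the immunoproteasome, went the other way. It gave 25.4, 25.5, 28.5 and 28.4 CPM in the untreated libraries and 21.7, 24.0, 23.6 and 23.3 CPM in the treated ones. All treated values were below all untreated ones (log2 fold change −0.22 ± 0.070, edgeR adjusted p = 0.0167; chromosome 8, 106662367 to 106665076, minus strand, GRCm39). The call was lost without untreated replicate 3 or 4 or treated replicate 1 (adjusted p = 0.0522, 0.0618 and 0.0557). Outside the set, Psmb8, the exchange partner of Psmb5, fell by 0.39 ± 0.11 (adjusted p = 0.0081), and Psmb9, the partner of Psmb6, was at −0.39 ± 0.22 with 30 to 66 reads per library (adjusted p = 0.177), or −0.20 without untreated replicate 4.

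The ratio of exchange to standard subunit within a library does not depend on the scaling factor. For Psmb10 to Psmb7 it was 0.342 to 0.380 untreated and 0.249 to 0.260 treated, without overlap. The mean log2 ratio changed by −0.51 (exact two-sided permutation test over 70 assignments, p = 0.0286, the smallest this design can give, and 0.0357 after Benjamini-Hochberg adjustment over 5 pairs). Psmb8 to Psmb5 gave 0.236 to 0.259 untreated and 0.149 to 0.172 treated, a change of −0.62 (exact permutation adjusted p = 0.0357). Psmb9 to Psmb6 gave 0.0196 to 0.0331 untreated and 0.0148 to 0.0190 treated, a change of −0.48 with the same exact adjusted p. All 4 treated libraries thus lay below all 4 untreated ones in each of these 3 ratios. For Psmb9 to Psmb6 the lowest untreated and highest treated ratio nearly met, each with 36 reads of Psmb9. Exons of Tap1 on the other strand, which rose (0.19 ± 0.061), cover 19.6% of the exonic bases of Psmb9. The read ratios compare libraries and not levels of the genes, which differ in length. Of the exonic bases of Psmb7 in GENCODE M39, 46.8% lie under exons of Nek6 on the other strand, and Nek6 also rose (0.26 ± 0.048). With Psmb6 as the denominator, which no other gene overlaps, the Psmb10 ratio changed by −0.34 (exact permutation adjusted p = 0.0357). With the Psmb5 copy Gm3375 added to its denominator, the Psmb8 ratio changed by −0.61 with that same exact adjusted p.

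**Figure D4:**
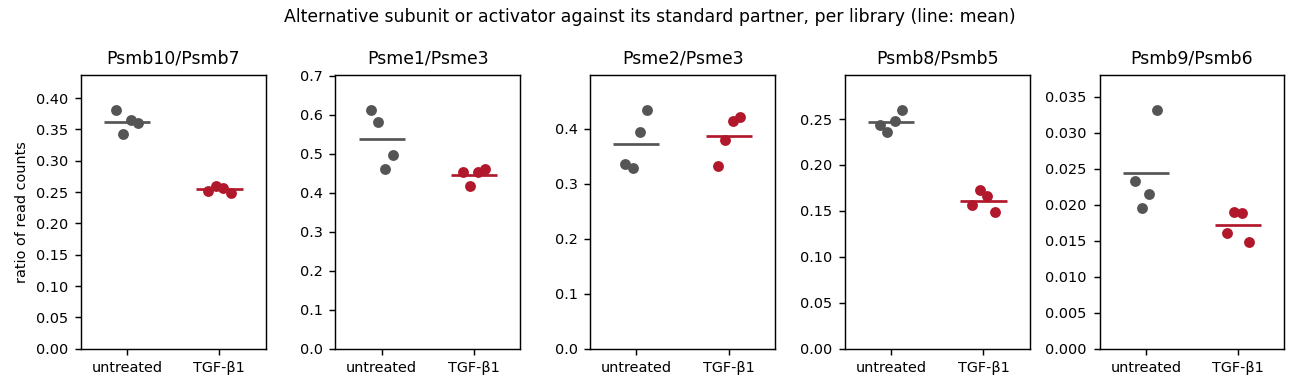
Ratio of read counts (vertical axes, from 0) in each library, 4 untreated and 4 TGF-β1, with lines at the means. Psmb10, Psmb8 and Psmb9 are set against their standard partners, and Psme1 and Psme2 against Psme3, a different activator. Treated libraries lie below all untreated ones for Psmb10/Psmb7, Psme1/Psme3, Psmb8/Psmb5 and Psmb9/Psmb6, and the groups overlap for Psme2/Psme3.

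Markers of macrophages and leukocytes, cells that are rich in the immunoproteasome, summed to 192.8 to 231.0 CPM in untreated libraries and 171.7 to 206.8 CPM in treated ones. Most of this sum was Lyz2 (168.8 ± 12.3 CPM untreated and 149.0 ± 10.3 CPM treated, SD over 4 libraries each), whose groups overlapped. Of these 9 markers 2 fell, Lyz2 and Cd14, 1 rose, Adgre1, and none was at 0. Their part in the lower Psmb10 and Psmb8 values was not tested.

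Of the 6 genes for activators, which cap the barrel in place of the 19S particle, and for the inhibitor, Psme3 and Psme4 rose and Psme2b fell. Psme3, the nuclear activator PA28γ, gave 85.5, 94.1, 101 and 96.6 CPM in the untreated libraries and 105, 109, 99.6 and 107 CPM in the treated ones, a log2 fold change of 0.15 ± 0.049 (edgeR adjusted p = 0.0167) with groups that overlapped in 1 treated library. Psme4, the large activator PA200, gave 98.5, 90.3, 91.8 and 91.7 CPM in the untreated libraries and 102, 98.7, 99.3 and 109 CPM in the treated ones (0.14 ± 0.045), and its groups were separate by a small margin. Psme1, the alpha chain of the interferon-induced activator, gave 52.3, 54.8, 46.8 and 48.0 CPM in the untreated libraries and 47.5, 45.5, 45.2 and 49.1 CPM in the treated ones. Its groups overlapped and it was not called (−0.11 ± 0.058, edgeR adjusted p = 0.169). Its ratio to Psme3, a different activator, was 0.461 to 0.612 untreated and 0.416 to 0.460 treated. The change was −0.26 (exact permutation adjusted p = 0.0357), and the lowest untreated and highest treated ratio nearly met. As Psme3 rose, this ratio does not give a fall of Psme1 alone. Of the exonic bases of Psme1, 39.6% lie under exons of Emc9 on the other strand, whose own value was 0.077 ± 0.13. Over 10% of the exonic bases lie under other genes in 11 members, among them also Psmd13 (41.2%), Psmc3ip (38.1%), Psme2 (30.8%, under Rnf31, which was not called) and Psmd4 (20%). Psmf1, the inhibitor PI31, was not called, with 33.1, 33.4, 38.1 and 36.1 CPM in the untreated libraries and 36.3, 35.3, 34.6 and 37.2 CPM in the treated ones (0.027 ± 0.061).

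Psme2, the beta chain of that activator, and Psme2b, an intronless copy of it (GRCm39, chromosome 11, 48836181 to 48837017, minus strand), were counted as separate genes although they are 99.4% identical over 795 bases. Psme2 gave 28.8, 30.9, 40.0 and 41.9 CPM in the untreated libraries and 34.8, 41.5, 41.2 and 45.0 CPM in the treated ones and was not called (0.20 ± 0.10, adjusted p = 0.119). Psme2b gave 30.0, 35.7, 31.1 and 29.9 CPM in the untreated libraries and 24.9, 27.9, 19.7 and 26.4 CPM in the treated ones and fell without overlap (−0.35 ± 0.088, adjusted p = 0.00292). Counted together, they gave 58.8, 66.6, 71.2 and 71.8 CPM in the untreated libraries and 59.7, 69.4, 60.9 and 71.4 CPM in the treated ones, and the sign of the Psme2 value turned (−0.036 ± 0.066, adjusted p = 0.716). The ratio to Psme3, which itself rose, changed by 0.055 with Psme2 alone (exact permutation adjusted p = 0.714) and by −0.19 with both genes summed (exact permutation adjusted p = 0.0286). The summed ratio was added after seeing the data, and 0.0286 is also its unadjusted p, the smallest this design can give. All 5 pairs were then at that smallest p, so the adjustment left it unchanged. It is no stronger than the adjusted p of 0.0357 of the planned pairs. No source used here gives how reads that match both genes were assigned, so the separate values of this pair are uncertain.

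Similar copies bear on other members. A search of canonical transcripts against GENCODE M39 found, for 10 members, a copy elsewhere of at least 95% identity over at least 600 bases. The processed pseudogene Gm3375 is 99.0% identical to Psmb5 over 795 bases and took 9256 reads over the 8 libraries, where Psmb5 took 5182. Gm3375 gave 69.3, 76.7, 67.7 and 68.8 CPM in the untreated libraries and 76.5, 91.0, 81.1 and 80.1 CPM in the treated ones and was also called higher (0.22 ± 0.055). Psmb5 summed with it rose by 0.22 ± 0.046, close to the value of Psmb5 alone. Gm13835, which matches Psma3 in all of 665 bases, took 42.6% as many reads as Psma3, and with the copies Psma3 rose by 0.15 ± 0.048 (adjusted p = 0.0183). The copies of Psma5 took 7.15% and 8.16% of its reads, those of Psma4, Psmb3, Psmc1 and Psmd2 at most 2.36%, and a noncoding RNA like Psmd11 took 4.40%.

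**Figure D5:**
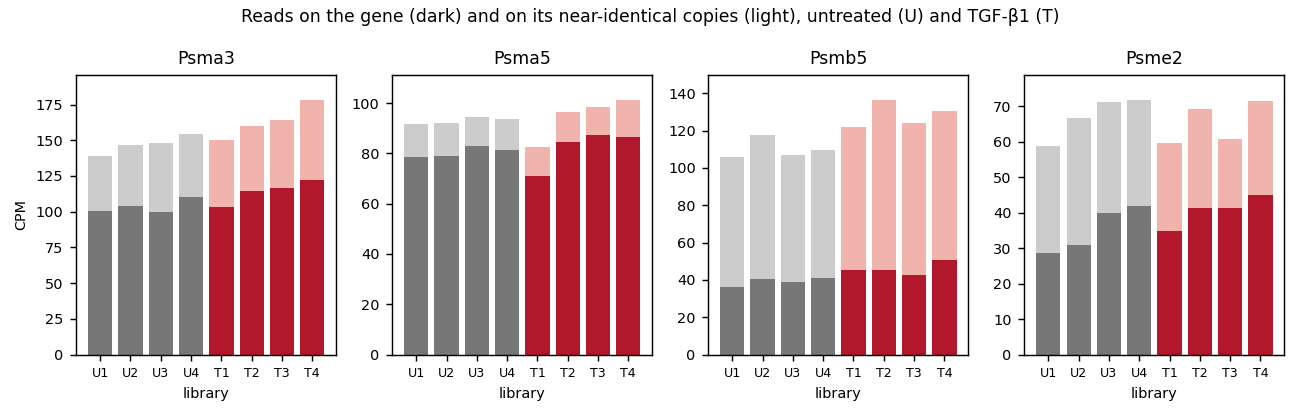
CPM (vertical axes, from 0) of Psma3, Psma5, Psmb5 and Psme2 in each library (U untreated grey, T TGF-β1 red, replicates 1 to 4), with the reads of their near-identical copies stacked in light colour. The copy part is larger than the gene part in Psmb5, and the Psme2 stacks overlap between groups.

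Levels per gene length were compared in the deposited FPKM of untreated libraries. Psmd8 was highest of the 31 standard subunits (116 ± 5.50 FPKM, mean ± SD, n = 4), followed by Psmb4 (111 ± 0.554), Psma6 (98.5 ± 4.46) and Psmd2 (87.0 ± 2.66), and Psmd11 was lowest (13.7 ± 0.897). The highest and lowest differed by 8.44 times. The first 2 in this order, Psmd8 and Psmb4, differed by less than the SD of Psmd8. The assembly chaperones lay lower, with a median of 10.6 FPKM against 41.4 for the standard subunits. The exchange subunit Psmb10 was at 15.5 ± 1.00 FPKM and its standard partner Psmb7 at 21.4 ± 1.61. FPKM depends on the gene length used. With canonical transcript lengths from GENCODE M39 the standard subunits spanned 10.4 times, and Psmb2 went from 73.4 to 22.0 and Psmb7 from 21.4 to 63.2, so the order within the particle is not settled by these values.

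Other genes of the ubiquitin and proteasome system were read from 4 lists, of which 39 of 40 genes were tested. Together 13 rose and 5 fell, which is 33.3% and 12.8% of them. The shares over all genes tested were 17.6% and 18.5%, and those over protein-coding genes in the CPM range of the standard subunits 29.2% and 17.9%, so the share that rose is near the latter. Among proteasome genes with other symbols 3 of 12 rose and 1, Psmb8, fell, and Paaf1 was not analysed here. Ube3c, a ubiquitin ligase bound to the proteasome, rose by 0.26 ± 0.043 and Akirin2, which guides proteasomes into the nucleus, by 0.22 ± 0.041. Adrm1, Sem1 and Pomp, which encode a ubiquitin receptor, a small lid subunit and the maturation factor of the core, were not called (−0.029 ± 0.052, −0.037 ± 0.056 and 0.041 ± 0.046). Of the genes that control proteasome expression 1 of 9 rose and 3 fell. Nfe2l1, which encodes the factor named above, went from 406 ± 12.4 to 480.0 ± 18.6 CPM (SD over 4 libraries each), or by 0.24 ± 0.037 (edgeR adjusted p = 2.14e-05), and its relative Nfe2l2 changed by −0.24 ± 0.052. Ngly1, whose enzyme removes sugars from NFE2L1 and is needed for its activation, fell (−0.19 ± 0.063, edgeR adjusted p = 0.0226), as did Nfya, a subunit of the factor that binds the CCAAT box (−0.21 ± 0.068). Of ubiquitin genes and E1 enzymes 3 of 8 rose and 1 fell. Uba7, the E1 enzyme of the interferon-induced modifier ISG15, changed by −0.53 ± 0.073 (adjusted p = 4.2e-06), and Uba3, a subunit of the E1 enzyme of NEDD8, by 0.18 ± 0.049 with overlapping groups. Rps27a was also called higher (0.66 ± 0.25, edgeR adjusted p = 0.0484), but its groups overlapped and treated replicate 3 was its highest library, at 413 CPM. Of the shuttles and p97 partners 6 of 10 rose and none fell, with Ubqln2 at 0.24 ± 0.046 and Nploc4 at 0.18 ± 0.038. With read totals 4 of these 39 genes rose and 9 fell, shares near the 9.32% and 26.3% of all genes.

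Psmc3ip and Psme3ip1, the members by symbol only, were not called (0.12 ± 0.11 and 0.0056 ± 0.066). With read totals Psme3ip1 was at −0.074 and Psmf1 at −0.053.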

How the data were processed

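The values are deposited read counts per gene, whole numbers that the authors did not normalize, and a second deposited table of FPKM. Per the submitters' processing notes, HISAT2, Subread featureCounts and CASAVA were used; neither versions nor a strand setting are stated there. The FPKM of the members equal counts over the listed length times a constant per library. The notes name GRCm38, the series design mm39; all 51 Psm genes checked, Psmb8 and Psmb9 included, overlap the same gene in GENCODE M39 (GRCm39), but 2 of 49 members do in GRCm38.p6, so coordinates are read as GRCm39.

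Genes were kept by filterByExpr (minimum count 10, total 15), scaled with TMM factors and tested with edgeR 4.0.16 quasi-likelihood (limma 3.58.1, R 4.3.3), group as the only term, Benjamini-Hochberg over 13960 genes, two-sided. Library totals of 14340740 to 17176898 set the precision; the biological coefficient of variation was 6.27%. CPM are counts over the TMM-scaled totals, and SE is the log2 fold change over the root of F. Ratios were tested by exact permutation (scipy 1.17.1). Alternatives were other scalings, filters, DESeq2 1.42.0, limma on log2(FPKM + 1) and log2(FPKM + 0.1), a replicate block, each library left out, and no ribosomal RNA genes or Lars2. Counting copies with their gene, Psmb6 as denominator and canonical lengths were added after seeing the data.

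Members and lists were chosen with earlier results of these data known. Values per library are given for the largest called change and the highest FPKM of each role group and for some fixed genes. Others were named after their values were seen.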

Additional observations from a re-analysis of the deposited data

Results flagged for a closer look

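In 7 of 96 groups of 4 libraries, a member had 1 library far from the other 3 by the gap relative to the whole range (above Dixon's 95% critical value). Chance flags about 1 in 20 such groups. Untreated replicate 1 was low in Psma1 (82.2 CPM against 89.1 to 90.5 CPM in the other untreated libraries) and in Psmd6 (103 CPM against 111 to 112 CPM). Treated replicate 1 was low in Psma5 (71.0 CPM against 84.6 to 87.2 CPM) and high in Psmd8 (415 CPM against 387 to 392 CPM). Treated replicate 2 was high in Psmd9 (33.5 CPM against 28.8 to 29.6 CPM) and in Psme3ip1 (43.7 CPM against 36.3 to 37.2 CPM). Treated replicate 4 was low in Psmd13 (119.9 CPM against 128.6 to 129.4 CPM), whose values in the other treated libraries lay further above the untreated ones.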

How the results depend on the processing

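Read totals in place of TMM factors gave 1301 genes higher and 10 members called, 7 higher, and in the other lists 4 higher and 9 lower. They turned the sign of 10 uncalled members: Psma5 (−0.047), Psma7 (−0.024), Psmc1 (−0.046), Psmc3 (−0.014), Psmc4 (−0.025), Psmc5 (−0.00055), Psmd9 (−0.012), Psmg3 (−0.023), Psmf1 (−0.053) and Psme3ip1 (−0.074). Upper-quartile scaling gave −0.0076 for Psme3ip1 and no count filter 0.0014 for Psmd3. An adjusted p under 0.01 left 16 members, 15 higher and 1 lower, and fewer of all genes than at 0.05. With copies counted with their gene 1 member was lower, Psmb10, since Psme2b no longer stood alone, and Psme2 was at −0.036; the Psme2 to Psme3 ratio was then −0.19. Without 1 library, members called ran from 21 to 25 (19 to 24 higher, 1 to 2 lower), genes called from 4517 to 4750, and other listed genes called lower from 3 to 6; Psmd3 ran from −0.023 to 0.015, Psmf1 from −0.0066 to 0.065 and Psme3ip1 from −0.060 to 0.046. Ratio changes ran from −0.54 to −0.48 (Psmb10/Psmb7), −0.33 to −0.20 (Psme1/Psme3), −0.0029 to 0.13 (Psme2/Psme3), −0.65 to −0.58 (Psmb8/Psmb5) and −0.58 to −0.32 (Psmb9/Psmb6); 3 against 4 libraries cannot give a p under 0.0571. Permuting within same-numbered pairs as a replicate block left the ratio changes at −0.51 (Psmb10/Psmb7), −0.26 (Psme1/Psme3), −0.62 (Psmb8/Psmb5) and −0.48 (Psmb9/Psmb6) with exact adjusted p = 0.156, and 4 pairs cannot give a p under 0.125. With the replicate block in edgeR 25 members rose and 2 fell, where 2416 and 2555 of all genes did. Deviations of same-numbered libraries correlated at −0.047 to 0.060, and those of differently numbered ones at −0.060 to 0.12. These values show no pairing by number, but 4 libraries per group cannot settle whether the numbers pair them. RLE factors, the stricter filter and the omission of ribosomal RNA genes and Lars2 changed no call of a member. The cause of these shifts was not tested.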
